A study of Drosophila melanogaster with 8 samples.

Results

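The regions described here are places in the genome of Kc cells that carried a called AGO2 peak in both mock immunoprecipitations and still carried one after transcription initiation had been blocked with Triptolide. Kc167 cells (Kc cells) are an established female Drosophila melanogaster line derived from embryos and resembling haemocytes, the blood cells of the fly. AGO2 was immunoprecipitated from crosslinked chromatin with a monoclonal antibody (9D6) after mock treatment or after 60 min in 10 µM Triptolide, with 2 replicates of each and a paired input for every immunoprecipitation, 8 samples in all. Both groups were the same cell line with no engineered allele, so the agent was the only labelled difference, and nothing in the labels ties a replicate to a separate culture. The 4 deposited peak lists are the only measurements: 1055 and 1919 peaks after mock treatment, 5594 and 5873 after Triptolide. Overlapping peaks of the mock lists were merged, and a merged interval holding a peak of both was called a mock region. There were 928 mock regions, 919 of them on the arms 2L, 2R, 3L, 3R and X. A mock region was kept when it overlapped a peak of at least 1 Triptolide list by 1 bp or more. On this rule 327 of 919 were kept, which is 35.6% (Wilson 95% interval 32.6 to 38.7), and 142 of 919, 15.5% (13.3 to 17.9), were kept in both Triptolide lists. The remaining 185 were kept in 1 list, and 592 mock regions were not kept. Members were selected on the called peaks themselves, so everything said below about peak overlap, rank, width and summit movement is a description without a test, and the intervals cover counting over regions only.

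AGO2 is the Argonaute protein of the fly small interfering RNA pathway, where it binds short RNAs and cleaves matching transcripts in the cytoplasm. It is also found in the nucleus, at promoters of active genes and at sites shared with insulator and GAGA-repeat binding proteins. Triptolide blocks the XPB helicase subunit of TFIIH, so RNA polymerase II can no longer open promoter DNA and new initiation stops. GAGA factor, the product of Trl, binds GAGAG repeats upstream of many fly start sites and keeps promoters open. The comparison of treatments asks which AGO2 sites still carry a called peak when new initiation is blocked.

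The sequence under some of the strongest kept summits is shown first. Windows at srp and mino follow, where summits moved furthest downstream and upstream among regions kept in both Triptolide lists. Each window is 201 bp, 100 bp on either side of a called summit, on the plus strand of dm6, with every GAGAG and its reverse complement CTCTC in capitals. In the windows of ttk, brk, noc and sd the summits of both treatments fell on the same cluster of repeats. In srp and mino the Triptolide summits fell in coding sequence with no match to either string.

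ttk, Triptolide replicate 1, chr3R:31713477-31713677: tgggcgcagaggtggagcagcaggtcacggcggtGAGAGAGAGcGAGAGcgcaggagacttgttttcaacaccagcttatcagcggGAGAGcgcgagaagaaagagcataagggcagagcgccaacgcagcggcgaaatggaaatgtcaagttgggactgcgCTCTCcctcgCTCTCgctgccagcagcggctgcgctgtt
brk, mock replicate 1, chrX:7307624-7307824: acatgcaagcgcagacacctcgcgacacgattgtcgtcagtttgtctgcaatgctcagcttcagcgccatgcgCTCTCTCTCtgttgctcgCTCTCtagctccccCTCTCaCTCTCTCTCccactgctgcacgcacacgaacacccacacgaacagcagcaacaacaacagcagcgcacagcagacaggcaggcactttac
brk, Triptolide replicate 1, chrX:7307605-7307805: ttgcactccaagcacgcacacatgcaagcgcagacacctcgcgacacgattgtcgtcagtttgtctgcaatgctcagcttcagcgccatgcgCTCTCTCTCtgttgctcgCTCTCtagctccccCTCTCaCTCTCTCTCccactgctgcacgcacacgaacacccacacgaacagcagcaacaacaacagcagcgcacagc
noc, Triptolide replicate 1, chr2L:14490501-14490701: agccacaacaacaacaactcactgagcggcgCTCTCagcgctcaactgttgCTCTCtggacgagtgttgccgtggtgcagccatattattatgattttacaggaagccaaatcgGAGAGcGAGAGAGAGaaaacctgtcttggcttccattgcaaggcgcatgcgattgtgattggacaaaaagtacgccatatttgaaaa
sd, Triptolide replicate 1, chrX:15811755-15811955: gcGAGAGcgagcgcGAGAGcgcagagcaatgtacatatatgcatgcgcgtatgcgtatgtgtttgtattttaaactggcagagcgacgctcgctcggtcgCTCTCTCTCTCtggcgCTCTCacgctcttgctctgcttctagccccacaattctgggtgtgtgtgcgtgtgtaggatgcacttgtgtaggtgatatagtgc
srp, mock replicate 1, chr3R:15994381-15994581: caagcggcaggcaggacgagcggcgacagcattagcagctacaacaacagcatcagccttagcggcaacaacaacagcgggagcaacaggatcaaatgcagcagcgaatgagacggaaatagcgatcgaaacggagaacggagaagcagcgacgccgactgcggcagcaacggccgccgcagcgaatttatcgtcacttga
srp, Triptolide replicate 1, chr3R:15994938-15995138: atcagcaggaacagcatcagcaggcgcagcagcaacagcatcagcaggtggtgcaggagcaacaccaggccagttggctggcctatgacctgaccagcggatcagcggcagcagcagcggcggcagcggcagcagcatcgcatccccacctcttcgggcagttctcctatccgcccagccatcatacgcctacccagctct
mino, Triptolide replicate 1, chr3R:27924430-27924630: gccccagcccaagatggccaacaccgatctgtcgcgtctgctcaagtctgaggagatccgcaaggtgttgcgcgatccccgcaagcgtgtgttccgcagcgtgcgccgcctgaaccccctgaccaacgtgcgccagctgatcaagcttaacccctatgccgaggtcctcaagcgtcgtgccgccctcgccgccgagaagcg

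The ttk window holds 7 overlapping matches, the brk windows 8 each, the noc window 6 and the sd window 7. The ttk and noc windows are intergenic in the annotation, the sd window is intronic, and the brk window lies in an intron of longer genes that span brk. The srp windows are coding sequence with many CAG triplets and hold 0 matches. The mino window lies in the coding sequence of the neighbouring gene RpL4, which encodes a ribosomal protein of the large subunit, and also holds 0.

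The Triptolide lists did not contribute equally. Triptolide replicate 1 had a peak in 303 mock regions (33.0%) and Triptolide replicate 2 in 166 (18.1%), so 161 of the 185 regions kept in 1 list came from replicate 1 and 24 from replicate 2. Most Triptolide peaks lay elsewhere: only 308 of 5472 arm peaks of replicate 1 (5.63%) and 171 of 5773 of replicate 2 (2.96%) overlapped a mock region. Of the 100 highest scoring peaks of Triptolide replicate 1, 71 overlapped a mock region, against 18 of the top 100 of replicate 2, so only in replicate 1 did such peaks make up most of the top of the list. Seen from the mock side, 84 of the 100 mock regions with the highest score in mock replicate 1 were kept and 46 were kept in both lists. For mock replicate 2 these counts were 82 and 40. Sequencing depth is not known from peak lists, and the unequal number of peaks moves these counts: with the same number of top scoring peaks taken from every list, 196 regions were kept and 60 were kept in both. Without Triptolide replicate 1 the number kept was 166, and without mock replicate 1 it was 498, or 26.4% of the regions then tested.

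The rank of a mock region within its own list differed between the grades. The percentile of the score in mock replicate 1 had a median of 82.7 for regions kept in both lists, 76.1 for those kept in 1 and 46.5 for those not kept. In mock replicate 2 these medians were 89.0, 86.5 and 70.0. In Triptolide replicate 1 the regions kept in both lists had a median percentile of 95.8, and in Triptolide replicate 2 of 83.2. The 24 regions found by Triptolide replicate 2 alone ranked lower than the others there, with a median percentile of 62.9. Median fold enrichment over input, as the peak caller gave it, was 6.31 and 9.07 in the mock lists and 4.23 and 3.59 in the Triptolide lists for regions kept in both.

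The 8 regions kept in both lists with the highest mean percentile lay at ttk, brk, Tet, Pde8, noc, CG31522, lncRNA:CR45609 and B4. The first was a 1312 bp interval upstream of ttk (FBgn0003870), which encodes the BTB zinc finger repressor Tramtrack, at chr3R:31712907-31714218. Its fold enrichment was 8.03 and 17.1 in the mock lists and 4.35 and 3.64 in the Triptolide lists, and its peaks were 1076, 1312, 709 and 487 bp wide in the same order. Positions are given in bp from the nearest start site, negative upstream. The summits lay at -251, -303, -290 and -300 bp, so the Triptolide summits fell between those of the mock replicates. At brk (FBgn0024250), the gene of the Brinker repressor of Dpp targets, the region at chrX:7307334-7308051 had summits at -215, -233, -234 and -211 bp. Its fold enrichment was 12.6 and 12.4 after mock treatment and 5.92 and 5.08 after Triptolide.

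Pde8 on 2R, which encodes a cyclic nucleotide phosphodiesterase, had the highest score of all peaks in Triptolide replicate 1. Its summits lay at -146 and -153 bp after mock treatment and at -152 and -165 bp after Triptolide, with 16 GAGAG matches in every window. Tet, the fly member of the TET dioxygenase family, had mock summits at -129 and -127 bp and Triptolide summits at -88 and -110 bp. The noc region, at the gene of a zinc finger repressor of eye and wing development, had fold enrichment of 14.9 and 14.4 after mock treatment and 4.94 and 3.03 after Triptolide. B4 differed from the others in position: its 1102 bp region lay in the gene and had 12 matches in every window. The nearest annotated start site was that of another gene, CG33640, and the mean mock summit lay at -14363.5 bp from it. In all 8 regions the mean mock and mean Triptolide summits were within 56.5 bp of each other.

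**Figure D1:**
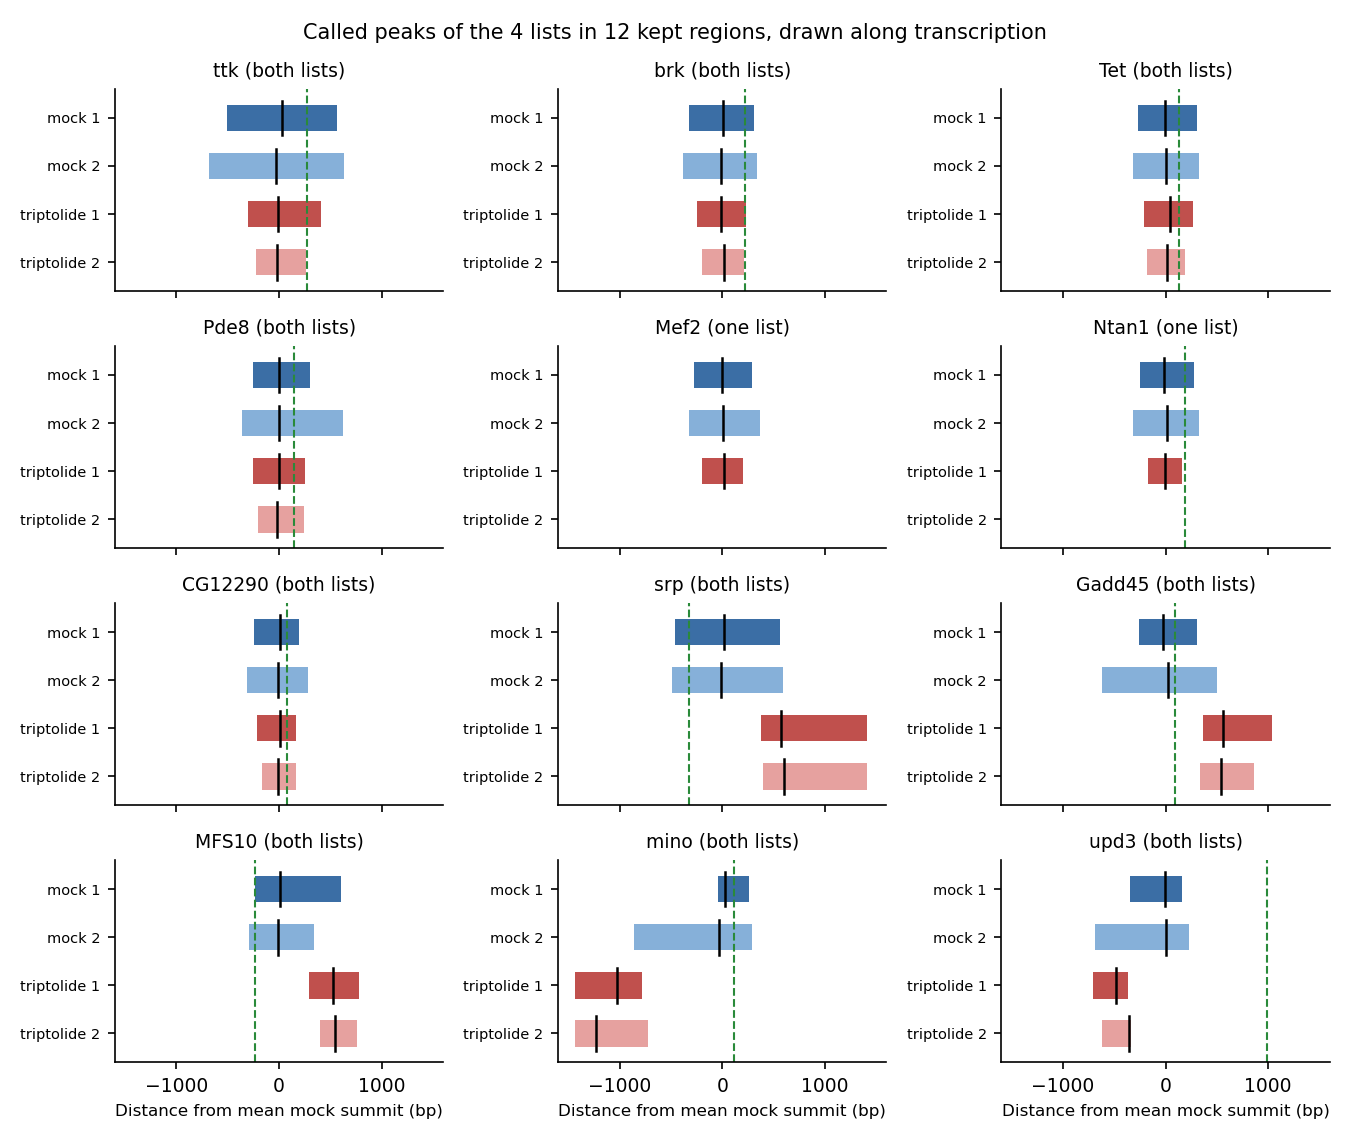
Called peaks (bars) and summits (black ticks) of the 4 lists in kept regions named in the text, in bp from the mean mock summit, drawn so that transcription from the nearest start site (dashed line, where within 1500 bp) runs to the right. At ttk, brk, Tet and Pde8 the 4 summits line up, and at srp, Gadd45 and MFS10 both Triptolide summits lie over 500 bp downstream of the mean mock summit.

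Among regions kept in 1 list, those with the highest mean percentile lay at Mef2, Ntan1, CG13917 and sd, all found by Triptolide replicate 1. Mef2 encodes the MADS box factor of muscle development, and its region on 2R lay in an intron, 3574 bp downstream of the start site, with fold enrichment of 13.6 and 19.6 after mock treatment and 6.27 after Triptolide. The sd region, at the gene of the TEAD factor Scalloped of the Hippo pathway (chrX:15811499-15812499), had 7.57 and 14.9 after mock treatment and 4.38 after Triptolide. Its summits lay at -264, -248 and -239 bp. These 4 regions had a mean percentile of 99.2 to 99.6, taken over the 3 lists with a peak, which leaves out the list in which none was called.

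How far did summits move? In the 142 regions with a peak in all lists, the distance between the mock replicates had a median of 20 bp (quartiles 8 to 45.3) and that between the Triptolide replicates a median of 25 bp (11.3 to 53.8). Across treatments the same-numbered pairs were 31 bp (17 to 95.8) and 50.5 bp (18.3 to 209) apart. Both medians across treatments exceeded both medians within a treatment, and the difference was larger at the upper quartile. Summits were 100 bp or more apart in 12 regions between the mock replicates, 21 between the Triptolide replicates, 32 for the first pair and 48 for the second. Of the 32 and 48, 29 regions were shared, and in 27 of those 29 the summit moved in the same direction in both pairs. Over all 327 kept regions the mean mock and mean Triptolide summits were a median of 29.5 bp apart. Leaving out mock replicate 1 raised this distance to 48.75 bp, and leaving out Triptolide replicate 1 gave 44.75 bp. In 315 of the 327 a Triptolide summit lay inside the mock region.

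**Figure D2:**
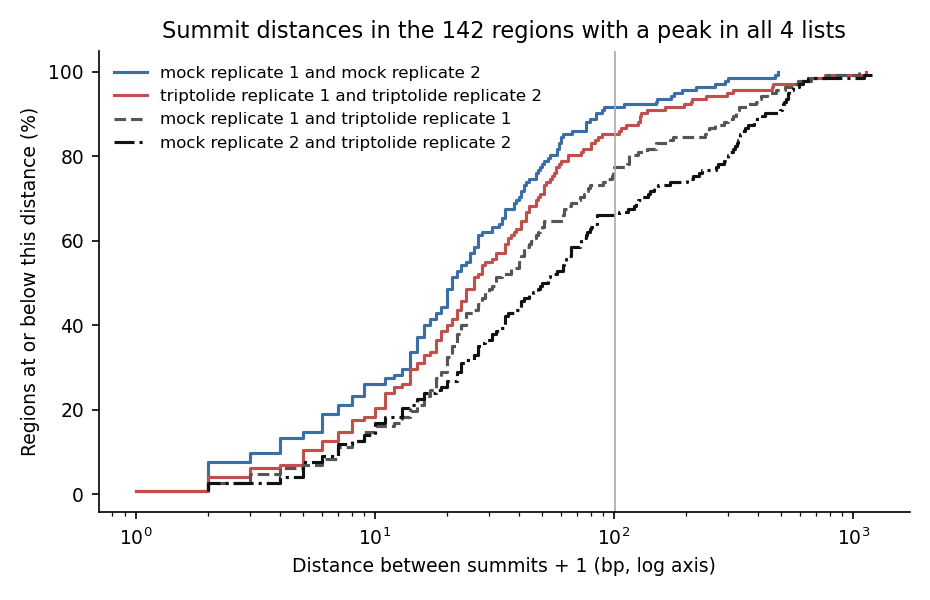
Share of the 142 regions kept in both lists with summits at or below a given distance (bp plus 1, log axis; grey line at 100 bp), for replicates of 1 treatment (solid) and for same-numbered replicates across treatments (broken). The mock replicates are the closest pair, with 31 regions at 50 bp or more, against 71 between mock replicate 2 and Triptolide replicate 2.

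A cutoff of 100 bp, set after seeing these distances, separated 255 kept regions with coincident summits from 72 with displaced summits. Of the regions kept in both lists, 99 were coincident and 43 displaced. The displaced ones were weaker peaks to begin with: in mock replicate 1 their median percentile was 39.1 in regions kept in both lists, against 88.4 for the coincident ones. In Triptolide replicate 1 the same medians were 80.4 and 97.5. The part of peak strength in the displacement was not tested. With a cutoff of 200 bp, 48 regions were displaced.

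Direction was measured along transcription from the start site nearest to the mock summit, at the 263 kept regions where it lay within 1500 bp. The Triptolide summit lay downstream of the mock summit at 168 of these, 63.9% (57.9 to 69.4). By pair, in regions kept in both lists, it was 66 of 111 for replicate 1 (59.5%, 50.2 to 68.1) and 74 of 111 for replicate 2 (66.7%, 57.5 to 74.7). Within a treatment, mock replicate 2 lay downstream of mock replicate 1 at 46 of 111 (41.4%, 32.7 to 50.7). Triptolide replicate 2 lay downstream of Triptolide replicate 1 at 59 of 111 (53.2%, 43.9 to 62.2), an interval that overlaps those of both pairs. For coincident regions the median movement was 5 bp downstream, well inside the distance between replicates. For displaced regions it was 260.5 bp downstream, and 46 of 56 moved that way (82.1%, 70.2 to 90.0). In 18 of the 56 the mock summit was upstream of the start site and the Triptolide summit downstream of it. Among summits 100 bp or more apart, 21 of 24 in the first pair and 30 of 34 in the second were downstream, beside 11 of 14 for Triptolide replicate 2 against Triptolide replicate 1 and 1 of 7 for mock replicate 2 against mock replicate 1.

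**Figure D3:**
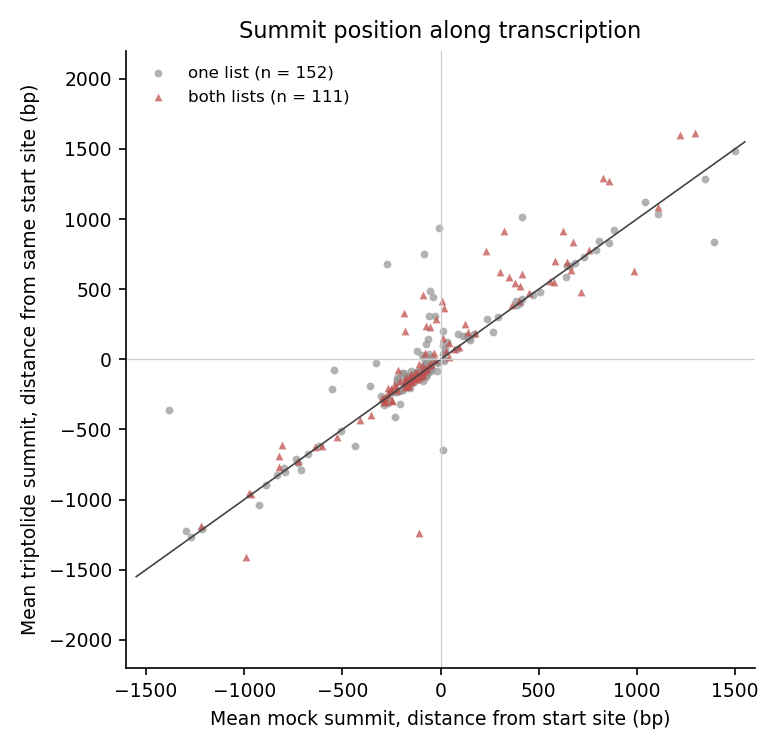
Mean Triptolide summit against mean mock summit, both as distance in bp from the start site nearest to the mock summit (negative, upstream), for 152 regions kept in 1 list (circles) and 111 kept in both (triangles). Most points follow the diagonal of no movement, mainly 0 to 300 bp upstream, and 46 of the 56 displaced points lie above it.

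The longest downstream movements in regions kept in both lists were at srp, Gadd45 and MFS10. At srp (FBgn0003507), which encodes the GATA factor Serpent of haemocyte development, the summits lay 341 and 307 bp downstream of the start site after mock treatment and 898 and 925 bp after Triptolide. All were in coding sequence, and the fold enrichment was 5.26, 8.20, 4.48 and 4.36. The mock region of 1086 bp shared 316 bp with a Triptolide peak, so the overlap there joined a mock peak with a Triptolide peak further into the gene. A second srp region, at the start site itself, was kept in 1 list and moved by 3.5 bp.

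Gadd45, a stress response gene on 2R, had mock summits at -116 and -63 bp and Triptolide summits 470 and 447 bp downstream of the start site, in coding sequence. Its windows held 4 GAGAG matches under both mock summits and 1 under both Triptolide summits, and their GC content was 49.3 and 47.8% against 62.7 and 64.2%. MFS10, a transporter of the major facilitator family, had summits 243 and 221 bp downstream after mock treatment and 762 and 779 bp after Triptolide. All 4 MFS10 summits were in the 5′ UTR. In each of these 3 genes the replicates of a treatment lay far closer to each other than to those of the other treatment.

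Upstream movements were fewer, and the longest in regions kept in both lists were at mino, upd3 and Lac. At mino, which encodes a glycerol-3-phosphate acyltransferase, the mock summits lay at -80 and -138 bp and the Triptolide summits at -1135 and -1344 bp, inside RpL4. At upd3, a cytokine gene of the JAK-STAT pathway, the mock summits were at -999 and -985 bp and the Triptolide summits at -1472 and -1347 bp. The upd3 region was among the weakest members, with a mean percentile of 25.6. Lac, which encodes the septate junction protein Lachesin, had mock summits 997 and 973 bp downstream of its start site in an intron and Triptolide summits 636 and 621 bp downstream in coding sequence. Among regions kept in both lists with a start site within 1500 bp, the shortest movements were at CG12290, Reg-5 and CHKov1, where mean summits were 0, 0.5 and 1 bp apart.

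The feature under the summit differed between treatments mainly in displaced regions, which follows in part from the grouping. Coincident summits lie close together and have little room to change feature. The counts below are therefore a description and not a test, and no share over all Triptolide peaks is set beside them. Among displaced regions 12 of 72 mock replicate 1 summits and 8 of 72 mock replicate 2 summits lay in coding sequence, against 29 of 63 Triptolide replicate 1 summits and 33 of 52 Triptolide replicate 2 summits. Summits in 5′ UTRs numbered 21 and 22 in the mock lists and 11 and 5 in the Triptolide lists. In coincident regions coding summits were 20 and 19 of 255 after mock treatment and 16 of 240 and 17 of 114 after Triptolide.

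Peaks were narrower after Triptolide in most kept regions, but the mock lists already differed from each other. In regions kept in both lists mock peaks had median widths of 549 and 686.5 bp, and Triptolide peaks of 444.5 and 378.5 bp. The log2 ratio of Triptolide over mock width had a median of -0.25 for the first pair and -0.75 for the second, beside 0.26 between the mock replicates and -0.18 between the Triptolide replicates. The first pair therefore differed by no more than the mock replicates did. Over all 327 kept regions the median log2 ratio of mean widths was -0.56 (quartiles -0.86 to -0.33), and 292 regions were narrower. Not kept regions were narrower to begin with, at 387 and 532 bp in the mock lists, and a wide region has more room to overlap a peak. Over all arm peaks the medians were 415 and 465 bp after mock treatment and 386 and 388 bp after Triptolide.

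**Figure D4:**
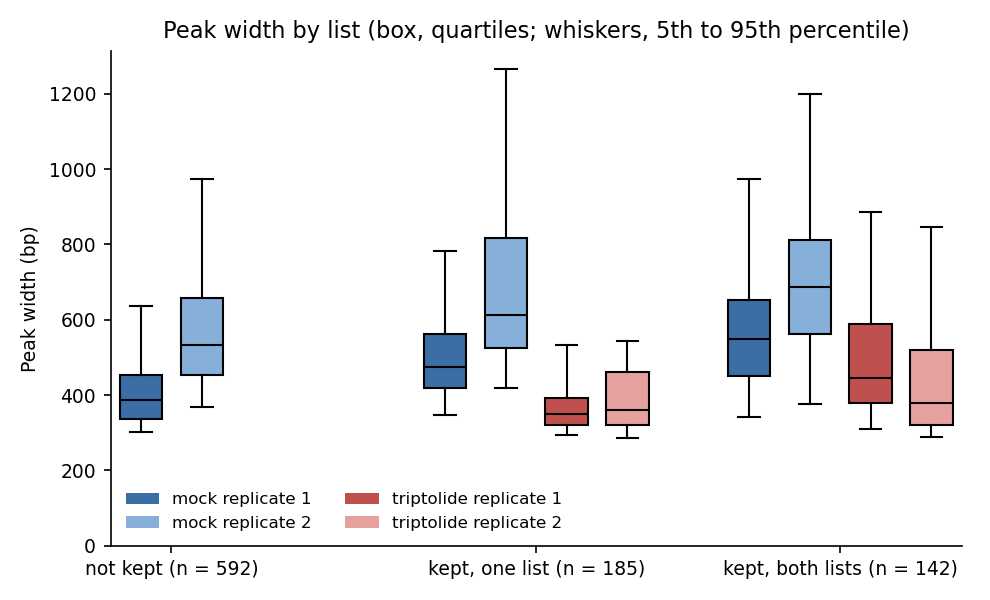
Peak width in bp by list for mock regions not kept, kept in 1 list and kept in both (box, quartiles with the median; whiskers, 5th to 95th percentile). Mock replicate 2 peaks are the widest in every group, and in regions kept in both lists the medians run from 378.5 bp in Triptolide replicate 2 to 686.5 bp in mock replicate 2.

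Among regions kept in both lists the largest narrowing was at CG1677, where an intronic region of 1881 bp had mock peaks of 1774 and 1881 bp and Triptolide peaks of 492 and 315 bp. These came from different parts of the region, because the Triptolide replicate 1 summit lay with the mock summits, at -8037 bp from the nearest start site (brk), and the Triptolide replicate 2 summit at -6906 bp. At lawc, a trithorax group gene within Trf2, which encodes a TBP-related core promoter factor, widths went from 961 and 1219 bp to 312 and 358 bp with the summits unmoved, 93, 98, 95 and 86 bp downstream of the start site. At CG31522 they went from 775 and 1737 bp to 452 and 495 bp.

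Widening was rarer, and in the 3 regions that widened most every summit was in coding sequence. The prospero gene pros, which encodes a homeodomain factor of neural precursors, had mock peaks of 328 and 363 bp and Triptolide peaks of 1318 and 2654 bp. At dpr17, which encodes an immunoglobulin domain protein of the cell surface, the widths were 324 and 308 bp against 688 and 642 bp, and at CG1504 295 and 375 bp against 628 and 664 bp. These 3 regions had mock percentiles of 3.79 to 20.5 and Triptolide percentiles of 52.6 to 91.5, so they were near the bottom of the mock lists and in the upper part of the Triptolide lists.

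Annotation was not used in choosing the regions. A promoter, 1500 bp on either side of a start site, was overlapped by 269 of 327 kept regions, 82.3%, and by 476 of 592 not kept, 80.4%. The difference was 1.86 percentage points (Newcombe 95% interval -3.56 to 6.92), an interval that spans 0. Exons outside promoters held 11 of the 142 regions kept in both lists (7.75%), 2 of the 185 kept in 1 list (1.08%) and 14 of the 592 not kept (2.36%). The difference between regions kept in both lists and those not kept was 5.38 points (1.67 to 11.1). For all kept regions it was 1.61 points (-0.65 to 4.48), and for regions kept in 1 list -1.28 points (-3.03 to 1.65). The exon comparison was not planned. With all lists in use, only the 5.38 points had an interval without 0 among the differences computed for promoters, introns, exons and GAGAG. With either mock list left out, the interval of the GAGAG difference also excluded 0, as given below. Kept regions were spread over the arms: the share kept ran from 31.5% of 168 on 3L to 40.1% of 202 on 2R, with 35.9% of 195 on X. The median mock summit within 1500 bp of a start site lay at -104 bp in regions kept in both lists, at -84 bp in regions kept in 1 and at -76 bp in those not kept.

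GC content moved with the summit. In regions kept in both lists the 201 bp window at the mock replicate 1 summit had a median GC content of 57.7%, against 55.2% in regions kept in 1 list and 52.2% in those not kept. The mean Triptolide window exceeded the mean mock window by a median of 0.50 percentage points over all kept regions (quartiles -0.50 to 2.24). In displaced regions the median difference was 4.73 points (1.00 to 10.4), and 61 of 72 had the higher GC content at the Triptolide summit. In coincident regions, whose windows largely share sequence across treatments, it was 0 points (-0.75 to 1.49). The contrast between these groups follows in part from the grouping and is a description and not a test. The whole Triptolide lists were richer in GC, with medians of 60.2% and 61.2%, against 54.2% and 53.2% in the mock lists.

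GAGAG or CTCTC, searched on both strands, was in 88.7% and 89.3% of the windows at the mock summits of the 327 kept regions and in 88.5% and 90.2% of those not kept. At the summit of the higher ranked mock peak the shares differed by -0.09 points (Newcombe 95% interval -4.47 to 3.85). This rests on having both mock lists. The difference was -8.34 points (-12.9 to -3.98) without mock replicate 1 and -7.14 points (-12.1 to -2.48) without mock replicate 2, and neither interval included 0. Among all 23398 annotated start sites on the arms, 24.4% of windows of the same length held the string.

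Coincident and displaced regions differed most at the Triptolide summit, which follows in part from the grouping. Windows of coincident regions largely share sequence across treatments, while displaced windows share less or none. The contrast between these groups is therefore a description and not a test. In coincident regions the string was in 92.5% and 91.8% of mock windows and in 91.7% and 82.5% of Triptolide windows. In displaced regions it was in 54 and 58 of 72 mock windows, in 25 of 63 Triptolide replicate 1 windows (39.7%, 28.5 to 52.0) and in 12 of 52 Triptolide replicate 2 windows (23.1%, 13.7 to 36.1). All Triptolide peaks on the arms had it in 26.0% and 22.9%. The dome region on X, at the gene of the JAK-STAT receptor, showed both states: 15 matches in the window of each mock summit and of Triptolide replicate 1, and 0 at Triptolide replicate 2. Lac had 10 matches at both mock summits and 1 at both Triptolide summits.

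**Figure D5:**
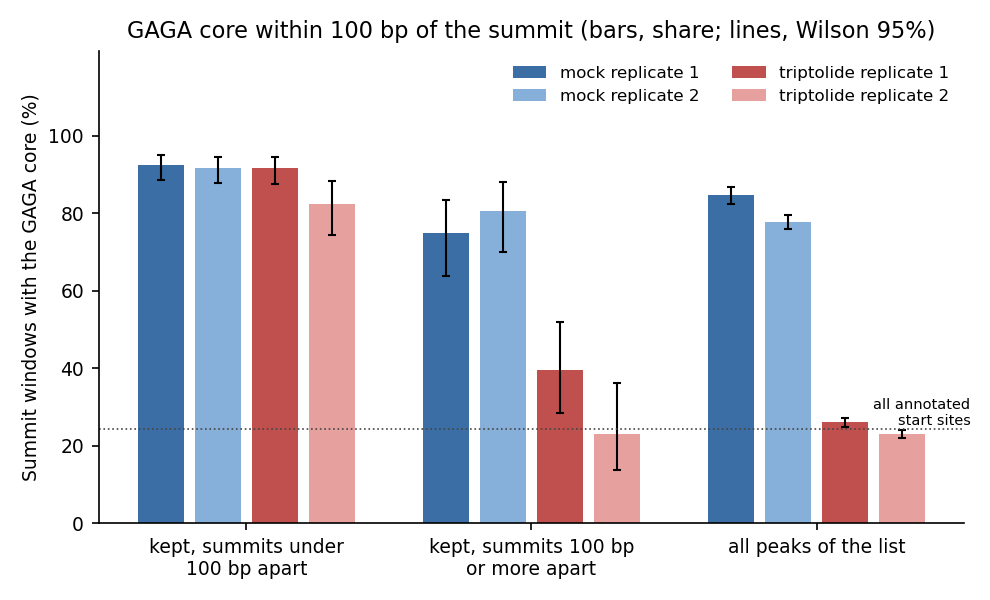
Share of 201 bp summit windows (percent) that hold GAGAG or CTCTC, by list (bars), for coincident and displaced kept regions and for all peaks, with Wilson 95% intervals (lines) and the share at all annotated start sites (dotted, 24.4%). Coincident regions stay between 82.5% and 92.5% in all lists, and displaced regions go from 54 and 58 of 72 windows in the mock lists to 39.7% and 23.1% in the Triptolide lists. By the grouping, coincident windows largely share sequence across treatments and displaced windows share less or none.

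Other strings were rarer. The TATA box string TATAAA was in 13 of 327 kept windows at mock replicate 1 summits (3.98%) and in 48 of 592 not kept (8.11%), against 26.2% of start site windows. The CAG repeat GCAGCAGC was in 19 of 142 windows at mock replicate 1 summits of regions kept in both lists (13.4%) and in 42 of 592 not kept (7.09%), and in 19.1% of all arm peaks of Triptolide replicate 1. A string match is a description of the letters and not a binding site.

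The kept regions touched 423 of the 1025 genes with a mock region (41.3%), and 190 genes had a region kept in both lists. A gene counted as kept when any of its mock regions was kept, so genes with several such regions had more chances. The 11 gene lists held 97 genes with a mock region, of which 53 had a kept one (54.6%, 44.7 to 64.2). Counting only regions within 1500 bp of a start site, it was 42 of 92. The share over all genes was not computed that way. The lists were chosen with earlier results of these data known, so these shares are a description. The ecdysone response, the steroid hormone cascade to which Kc cells respond, had 11 of 15. Eip74EF, an Ets factor, and the nuclear receptors Hr3 and Hr38 were kept in both lists, EcR, the receptor itself, with Eip75B, Hr4, ftz-f1, crol, Kr-h1, tai and vri in 1 list, and Eip78C, Eip63E, br and Hr39 in neither.

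The JAK-STAT, Toll, Imd and JNK signalling list had 7 of 11, with 5 in both lists, beside 190 of all 1025 genes with a mock region. These 5 were the receptor gene dome, the ligand genes upd2 and upd3, the inhibitor gene Socs36E, and Gadd45. Being kept means only that peaks overlapped, and the upd3 and Gadd45 regions were among the displaced ones, as described above. In 1 list were spz and kay, and in neither imd, Traf4, puc and egr. The Notch pathway had 6 of 9, with the coactivator gene mam in both lists, the ligand gene Ser and the targets E(spl)m3-HLH, E(spl)m8-HLH and E(spl)mbeta-HLH in 1 list, and the receptor gene N in neither. The Dpp pathway had 3 of 9: the receptor gene wit and the repressor gene brk in both lists and the inhibitor gene Dad in 1, while the ligand gene dpp and the receptor gene tkv were not kept. Of the BTB and GAGA factor genes 5 of 10 were kept, ttk and lola in both lists and Trl, psq and bab1 in 1. The haemocyte list had srp in both lists, its partner gene ush in 1 and lz in neither. Of the remaining lists, EGF receptor and Ras signalling had 4 of 9, RNA-binding protein genes 5 of 12 and actin and adhesion genes 4 of 9. Polycomb, trithorax and insulator genes had 5 of 9 and circadian clock genes 2 of 3.

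Some genes held several kept regions, and the genes below were named for that reason. Over all mock regions on the arms, 35.6% were kept and 15.5% were kept in both lists. Among genes with 3 or more kept regions the lowest share was 3 of 9, at Tlk. Myo81F, a myosin gene of 1965857 bp, kept 6 of 6, with 5 in both lists. These 5 were displaced by 150.5 to 545.5 bp, and 4 of them had no GAGAG match at any summit. All 3 mam regions kept of 4 were in both lists. Eip74EF kept 5 of 8 with summits 8 to 47.5 bp apart. Trl, which encodes GAGA factor itself, kept 3 of 3 in 1 list, with log2 width ratios of -1.29, -1.79 and -1.71 and summits 12.5 to 36.5 bp apart.

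At the edge of the rule, the smallest overlap was 12 bp, at CG4630 and Sdb on 2R, both through Triptolide replicate 2 alone. Their mean summits were 658 and 557.5 bp apart. The nearest regions left out were at emc, which encodes an inhibitor of basic helix-loop-helix factors, with a gap of 7 bp to the nearest Triptolide peak, and at Traf4 with a gap of 13 bp. Of the 592 regions not kept, 6 had a Triptolide peak within 100 bp and 57 within 500 bp.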

How the data were processed

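AGO2 chromatin immunoprecipitation sequencing was available as 4 deposited peak lists, called per library against its input. Per the submitters' processing notes, reads were trimmed with cutadapt 1.10, aligned to dm6 with Bowtie2, deduplicated with Picard 2.11.0 and called with MACS2 2.1.1.20160309. The deposited columns used were the score, the fold enrichment over input (a ratio) and the −log10 q that the authors obtained from the caller. The inputs have no peak list here, and depth is unknown. The members and lists were chosen with earlier results of these data known.

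Peaks were merged and compared with Python 3.11.15, numpy 2.4.6 and scipy 1.17.1, and plotted with matplotlib 3.10.9. Genes and start sites came from Ensembl release 115 (BDGP 6.54) and sequence from the RefSeq Release 6 assembly, the same assembly as dm6. Percentiles are ranks of the score within a list. Windows were 201 bp. Where a region held several peaks of a list, the one with the highest score was used. Named regions were the 8 kept in both lists and the 4 kept in 1 list with the highest mean percentile, 3 for each extreme of displacement and width, and 2 on each side of the rule. Genes of the lists and genes with several kept regions were also named, and dome was chosen after its values were seen. No test was made over regions. Intervals are Wilson or Newcombe 95% intervals and cover counting error only. The steps were tested on simulated data with planted peaks. Alternatives were an overlap of 50% or more, a −log10 q of at least 5, equal numbers of peaks, other windows and promoters, and leaving out each list. The 100 bp cutoff between coincident and displaced summits, its 200 bp alternative and the longer GAGA string were chosen after seeing the data.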

Additional observations from a re-analysis of the deposited data

Results flagged for a closer look

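Outside the 5 arms, 9 mock regions were left out of every comparison above, and 4 of them had a peak in both Triptolide lists. This is a signal in data that the comparisons did not use. All 4 were among the 5 regions on unplaced X scaffolds, and none of the 4 regions on chromosome 4 had a peak in both lists.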

How the results depend on the processing

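No paired analysis was possible because no result comes from a test to which a replicate block could be added. Same-numbered pairs were compared as descriptions only. Of 73 values under alternatives, 57 stayed within the limit set for their measure and 16 moved. For counts the limit was 1.5 times of the main count. For summit distance, share moved downstream, width ratio and GC difference over all kept regions it was the replicate spread. For the other shares and the promoter and GAGAG differences it was the Wilson or Newcombe interval of the main value. Such an interval covers counting over regions only and not the spread between replicates. The differences in promoter share (-3.43 to 5.26 points) and in GAGAG share changed sign among the alternatives, and the interval of each included 0 with all lists. With equal numbers of top scoring peaks 196 regions were kept, 60 in both lists, 25.0% of mock regions. With a −log10 q of at least 5, 75 were kept in both lists and the share kept was 27.6%. Leaving out each list in turn gave 166 to 498 kept regions, 168 to 233 in both lists, a share of 18.1% to 35.8%, a median summit distance of 29.5 to 48.75 bp and a GAGAG difference of -8.34 to 1.64 points. With GAGAGAGA in place of GAGAG, the share at displaced Triptolide summits was 6.35% and 5.77%. The share moved downstream was 59.3% to 67.9% and the log2 width ratio -0.34 to -0.63 without each list. Depth is unknown, and 2 lists a treatment give little measure of spread.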
